A study of Mus musculus with 12 samples.

Results

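Mouse bone marrow stem and progenitor cells cultured with valproic acid alone were compared directly with the same kind of cells cultured with lithium alone. The comparison was defined by the sample labels and took in 6 of the 12 arrays of the study, 3 for each agent. The cells were L-S+K+ cells from C57Bl/6 bone marrow, a phenotype that enriches for hematopoietic stem and progenitor cells, and each array carried the RNA of 1 culture from independent biological triplicates. All cultures were kept for 7 days in liquid culture with GM-CSF (a growth factor for granulocytes and macrophages), stem cell factor and fetal calf serum, so every group, the controls included, was under myeloid differentiation. Valproic acid was given at 1 mM and lithium chloride at 5 mM. The other 6 arrays held cultures with growth factors only (3) and with both agents together (3), and they are used here only to place the values.

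Valproic acid is a short branched fatty acid that inhibits histone deacetylases, the enzymes that remove acetyl groups from histone tails, and it is used in the clinic as an antiepileptic. Lithium is a cation that inhibits glycogen synthase kinase 3, the kinase that marks beta-catenin for degradation, as well as phosphatases of the inositol cycle. Both are mood stabilizers, and both have been studied in cultures of hematopoietic stem cells. GM-CSF drives such progenitors into macrophages, dendritic cells and granulocytes.

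The arrays detected between 42.3% and 46.8% of their 25697 probes (detection p under 0.05), and the tests covered the 12907 probes that 3 or more of the 12 arrays detected. Values below are log2 intensities after background correction and quantile normalization. Intensities of different probes are not comparable with each other, and of the values that were not detected 90% lay between 4.49 and 5.20 on this scale. Whole-culture RNA was measured, so fewer cells of a type and less RNA per cell cannot be told apart. The arrays came from 3 chips: the first valproic acid array lay on a chip that held no lithium array, the second shared a chip with lithium replicate 3, and the third shared a chip with lithium replicates 1 and 2. Over 9800 probes detected on no array, the 8 arrays of the latter 2 chips correlated with each other (r from 0.485 to 0.569), while all other pairs of arrays had r from 0.121 to 0.209. Valproic acid replicate 1 therefore stood apart from the other arrays of the comparison in its background, and the direct contrast was also fitted with the array set as a block. Some probes were detected on only some arrays of the dimmer agent, so that their differences partly rest on values at the background. These were Cox4i2 and Hoxa7 (2 of 3 lithium arrays), Hoxa9, Ly86 and Hdac6 (1 of 3 lithium arrays), Ctsk, Mmp13 and Cxcl2 (2 of 3 valproic acid arrays), and Fstl1, Ccl7, Cd80, Cd83 and Bmi1 (1 of 3 valproic acid arrays).

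The direct contrast separated the agents at 1869 of the 12907 probes, 14.5% (limma, Benjamini-Hochberg adjusted p under 0.05). Of these, 993 (7.69%) were higher with valproic acid and 876 (6.79%) were higher with lithium. The numbers of differing probes were alike in the 2 directions, and the sizes were not: at least 4-fold differences were seen at 80 probes higher with valproic acid and 158 higher with lithium, and at least 8-fold differences at 13 and 50. All 1869 probes had the same sign within each of the 2 chips that held both agents, and all 1869 also passed with the array set as a block, a fit that called 3459 probes (1843 and 1616) and 28.3% of genes (15.5% and 12.7% by direction). At 1868 of them the 3 arrays of one agent did not overlap the 3 of the other, against 4957 (38.4%) of the tested probes. Arrays that do not overlap must share the sign within each chip, so the agreement within chips was fixed for these 1868 probes. Leaving out 1 array at a time gave 1143 to 2178 probes. The lowest counts came without lithium replicate 1 (1143, of which 569 were higher with valproic acid and 574 with lithium) and without lithium replicate 2 (1229, of which 615 were higher with valproic acid), and without lithium replicate 3 the number higher with valproic acid was 633.

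**Figure D1:**
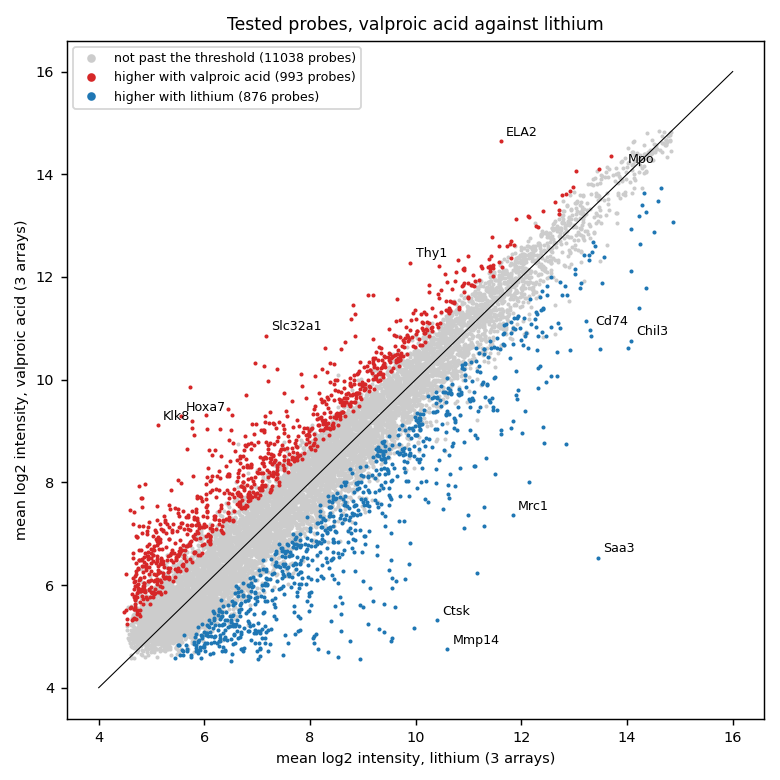
Mean log2 intensity of each tested probe with lithium (horizontal axis, 3 arrays) and with valproic acid (vertical axis, 3 arrays), with the line of equality. The 993 probes higher with valproic acid lie above the line and the 876 higher with lithium below it, and the points farthest from the line, Saa3, Mmp14 and Ctsk, lie on the lithium side.

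Counted by gene, the brightest tested probe stood for each gene. Of 9506 genes, 827 (8.7%) were higher with valproic acid and 672 (7.07%) were higher with lithium. The median difference over all genes was 0.0336 (log2). Counts of gene lists below are to be read against these shares, or against 15.5% and 12.7% with the array set as a block. The mean of the growth-factor cultures lay nearer to the valproic acid mean than to the lithium mean at 20.3% of the 1869 probes, and the mean of the cultures with both agents lay nearer to the valproic acid mean at 90.5%. Over all tested probes these shares were 39.4% and 75.9%. At most of the probes that separated the agents, the untreated level was therefore closer to lithium, and the level with both agents closer to valproic acid. Replicates 2 and 3 of the cultures with both agents and growth factors only replicate 1 shared the chip of valproic acid replicate 1. On the chip of valproic acid replicate 3 alone, which held replicate 1 of the cultures with both agents, the shares were 20.8% and 89.3%. Against growth factors only, valproic acid differed at 3248 probes (25.2%) and lithium at 1108 (8.58%, of which 3.52% higher and 5.07% lower). The balance of directions depended on the scaling: with median scaling the lithium split was 772 higher and 392 lower against 454 and 654 in the fit used here, and the valproic acid split was 2094 and 1146 against 1707 and 1541, with the median over all probes at 0.187 against 0.0318 for lithium and 0.169 against 0.0528 for valproic acid (log2). The lithium count also depended on single arrays and fell to 448, 458 and 725 without lithium replicate 3, 2 and 1 and to 567 without growth factors only replicate 3. These comparisons share the growth-factor arrays, so they are given below only as values for named genes and lists.

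The promoters of 4 genes are shown, those with the largest differences in each direction among the named genes with a listed RefSeq promoter. Cox4i2, the gene with the largest difference toward valproic acid, had no entry there. Each run is the 250 bases before the first listed RefSeq start (GRCm38.p6), read along the strand of the gene. Capitals mark matches on either strand to GGGCGG (GC box), GAGGAA (PU.1 core), TGANTCA (AP-1) or TTNNGCAA (C/EBP), 4 motifs chosen with these sequences in view.
Klk8, chr7:43797327-43797576, plus strand, higher with valproic acid: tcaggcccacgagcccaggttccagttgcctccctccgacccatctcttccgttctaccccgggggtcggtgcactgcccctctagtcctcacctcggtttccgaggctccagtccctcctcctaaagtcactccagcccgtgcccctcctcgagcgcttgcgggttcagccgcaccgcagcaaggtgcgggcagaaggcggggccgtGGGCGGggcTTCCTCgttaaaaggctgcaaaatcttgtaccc
Hoxa7, chr6:52218574-52218823, minus strand, higher with valproic acid: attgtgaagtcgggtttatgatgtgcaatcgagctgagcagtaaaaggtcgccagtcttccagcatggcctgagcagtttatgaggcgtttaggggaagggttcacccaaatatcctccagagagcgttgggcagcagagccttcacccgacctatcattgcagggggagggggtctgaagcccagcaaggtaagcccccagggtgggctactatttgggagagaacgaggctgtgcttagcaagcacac
Saa3, chr7:46715677-46715926, minus strand, higher with lithium: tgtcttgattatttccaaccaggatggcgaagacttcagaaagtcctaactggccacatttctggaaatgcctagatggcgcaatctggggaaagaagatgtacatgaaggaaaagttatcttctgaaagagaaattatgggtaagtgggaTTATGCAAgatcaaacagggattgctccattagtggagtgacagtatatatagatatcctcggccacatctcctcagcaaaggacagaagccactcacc
Mmp14, chr14:54431348-54431597, plus strand, higher with lithium: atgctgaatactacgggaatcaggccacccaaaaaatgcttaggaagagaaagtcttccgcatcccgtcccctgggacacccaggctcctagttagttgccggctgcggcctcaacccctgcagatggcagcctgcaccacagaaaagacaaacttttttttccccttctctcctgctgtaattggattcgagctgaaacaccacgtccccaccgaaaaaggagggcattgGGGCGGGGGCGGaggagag

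Of the 24 genes with the largest differences, 16 had an entry in the RefSeq promoter table, 6 of those higher with valproic acid and 10 of those higher with lithium. The GC box was in 2 of the 6 and 4 of the 10, against 32.9% of 27025 promoters of the same length. The PU.1 core was in 3 of the 6 and 3 of the 10, against 23.1%. The C/EBP motif, of which the Saa3 run holds 1 match, was in 0 of the 6 and 4 of the 10, against 9.55%, and the AP-1 motif was in 0 and 1, against 6.87%. These are matches of letters in short windows of few genes, and no test was made of them.

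The 12 genes with the largest differences toward valproic acid ranged from 3.04 to 4.13 on the log2 scale (non-overlap of the 3 arrays per agent was part of the naming rule). They did not belong to 1 cell type: they included a mitochondrial subunit, a serine protease, a homeobox gene, a vesicular transporter and a neutrophil elastase name. Cox4i2, an isoform of cytochrome c oxidase subunit 4, was 10.31, 9.77 and 9.49 with valproic acid (replicates 1 to 3) and 6.52, 5.05 and 5.60 with lithium, 17.6-fold higher (4.13 ± 0.36 SE, adjusted p = 1.26e-05). The growth-factor arrays, 7.64, 6.67 and 6.83, lay between the agents, with a difference of 2.81 for valproic acid (adjusted p = 0.000136) and of -1.33 for lithium (adjusted p = 0.0418). The latter call was lost with median scaling and when any of several single arrays was left out, among them each growth-factor array and lithium replicates 2 and 3. Cox4i1, the common isoform, did not pass the test (-0.01 ± 0.28, adjusted p = 0.979).

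Klk8, a kallikrein-family serine protease known from brain and skin, read 8.89, 9.25 and 9.21 with valproic acid and 5.05, 5.18 and 5.12 with lithium. It was detected on all 3 valproic acid arrays and on no lithium array, so its difference is at least 13.1-fold (measured means 9.12 ± 0.20 and 5.12 ± 0.07, SD, n = 3, adjusted p = 2.61e-07). The growth-factor arrays, 5.12, 4.71 and 4.75, did not detect it either. The contrast of lithium with growth factors only (0.26, adjusted p = 0.53) therefore compared background values and cannot show whether lithium changed Klk8. Gpc3, a heparan sulfate proteoglycan of the cell surface, was also undetected with lithium and at least 5.79-fold higher with valproic acid (means 7.94 ± 0.28 and 4.76 ± 0.18, adjusted p = 5.52e-07). Sult4a1, a brain sulfotransferase family member, was at least 5.91-fold higher (means 7.97 ± 0.50 and 4.88 ± 0.14, adjusted p = 0.000271), and it too was undetected on the 3 lithium arrays.

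Slc32a1, the vesicular transporter of the inhibitory neurotransmitters GABA and glycine, read 11.04, 10.83 and 10.70 with valproic acid, 6.89, 7.37 and 7.23 with lithium and 6.88, 6.51 and 6.37 with growth factors only. The agents differed 12.9-fold (3.69 ± 0.20, adjusted p = 2.8e-07). Igf2bp3, an RNA-binding protein typical of fetal cells, read 10.22, 10.41 and 10.37 against 6.77, 7.14 and 6.98 (10.3-fold, adjusted p = 2.8e-07), and a second probe of the gene differed by 2.97. Both genes showed a narrow spread within each agent and a wide gap between agents. Armcx2, an armadillo-repeat protein encoded on the X chromosome, was 8.86-fold higher with valproic acid (adjusted p = 3.55e-06), and here lithium itself was above growth factors only by 1.69 (adjusted p = 0.000992).

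Nrbp2, a pseudokinase, differed in the other manner: it read 9.85, 9.06 and 8.64 with valproic acid, 8.45, 7.36 and 8.45 with growth factors only and 5.73, 6.02 and 5.55 with lithium. Valproic acid was above growth factors (adjusted p = 0.0358, a call lost without growth factors only replicate 2, lithium replicate 1 or valproic acid replicate 1 or 2) and lithium was below (-2.32, adjusted p = 0.0018), so most of the 10.7-fold gap between the agents lay on the lithium side. Bcas1, a gene known from myelinating glia and amplified in breast cancer, was 9.87-fold higher with valproic acid (adjusted p = 0.000293), with valproic acid arrays spread from 8.23 to 9.93. Shfl, an interferon-induced inhibitor of ribosomal frameshifting, was 9.62-fold higher (adjusted p = 2.07e-05). All 12 genes were higher with valproic acid than with growth factors only (11 or 12 when 1 array was left out). Over all genes, 14.2% were higher with valproic acid than with growth factors. The 12 genes were chosen by their difference between the agents, and the same valproic acid arrays enter both contrasts. Their number is therefore not independent of the choice and cannot be weighed against that share.

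The 12 genes with the largest differences toward lithium ranged from 4.03 to 6.91. Of these, 4 encode proteases of the extracellular matrix or the lysosome (Mmp14, Mmp12, Mmp13 and Ctsk). Saa3, an acute-phase serum amyloid A made by macrophages, showed the widest gap: it read 13.74, 13.35 and 13.25 with lithium and 6.34, 6.37 and 6.89 with valproic acid, 120-fold lower with valproic acid (-6.91 ± 0.36, adjusted p = 2.61e-07). The growth-factor arrays read 9.15, 10.13 and 10.05, so the agents lay on opposite sides of the untreated level, with a difference of 3.67 for lithium (adjusted p = 0.000108) and -3.25 for valproic acid (adjusted p = 4.29e-05).

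Mmp14, a membrane-anchored metalloprotease that activates other matrix proteases, read 10.46, 10.54 and 10.78 with lithium and 4.58, 4.77 and 4.91 with valproic acid. No valproic acid array detected it, so lithium was at least 39.1-fold higher (means 10.59 ± 0.16 and 4.75 ± 0.16, adjusted p = 2.32e-09). Growth factors only gave 8.86, 9.13 and 9.10, between the agents and closer to lithium. Ctsk, cathepsin K of osteoclasts and tissue macrophages, read 10.74, 10.20 and 10.24 with lithium, 4.74, 5.82 and 5.37 with valproic acid and 11.91, 12.13 and 11.85 with growth factors only. It was 33.9-fold higher with lithium than with valproic acid (adjusted p = 2.13e-07) although lithium itself was below growth factors (-1.57, adjusted p = 0.00328). The macrophage elastase Mmp12 was 17.4-fold higher with lithium (adjusted p = 0.000226), with valproic acid arrays at 6.68, 8.87 and 8.49, and the collagenase Mmp13 was 16.3-fold higher (adjusted p = 2.13e-07). A second Mmp13 probe differed by a smaller -1.20.

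Pdpn, podoplanin, a surface mucin of stroma and inflammatory macrophages, averaged 11.16 ± 0.24 with lithium and 6.24 ± 0.13 with valproic acid (SD, n = 3; -4.92 ± 0.19, adjusted p = 3.82e-08). Fstl1, a secreted glycoprotein, read 10.15, 9.94 and 9.79 with lithium and 4.92, 5.44 and 5.13 with valproic acid, where 1 of 3 arrays detected it (adjusted p = 1.34e-07). Tppp3, a tubulin-binding protein, Cav1, the caveolar coat protein, and Il7r, a subunit of the interleukin-7 receptor, were detected on all 3 lithium arrays and on no valproic acid array. Lithium was at least 18.8-fold higher for Tppp3, 12.5-fold for Cav1 and 17.2-fold for Il7r (adjusted p = 2.8e-07, 4.09e-07 and 1.65e-06). Their means with lithium and valproic acid were 9.54 ± 0.37 and 4.91 ± 0.18 for Tppp3, 8.95 ± 0.30 and 4.57 ± 0.12 for Cav1, and 9.41 ± 0.57 and 5.09 ± 0.17 for Il7r. A second, dimmer Il7r probe differed by -0.39 and did not pass. All 12 genes were lower with valproic acid than with growth factors only (11 or 12 when 1 array was left out). Over all genes, 12.5% were lower with valproic acid than with growth factors. Here too the choice of the 12 genes used the same valproic acid arrays, so the number cannot be weighed against that share.

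**Figure D2:**
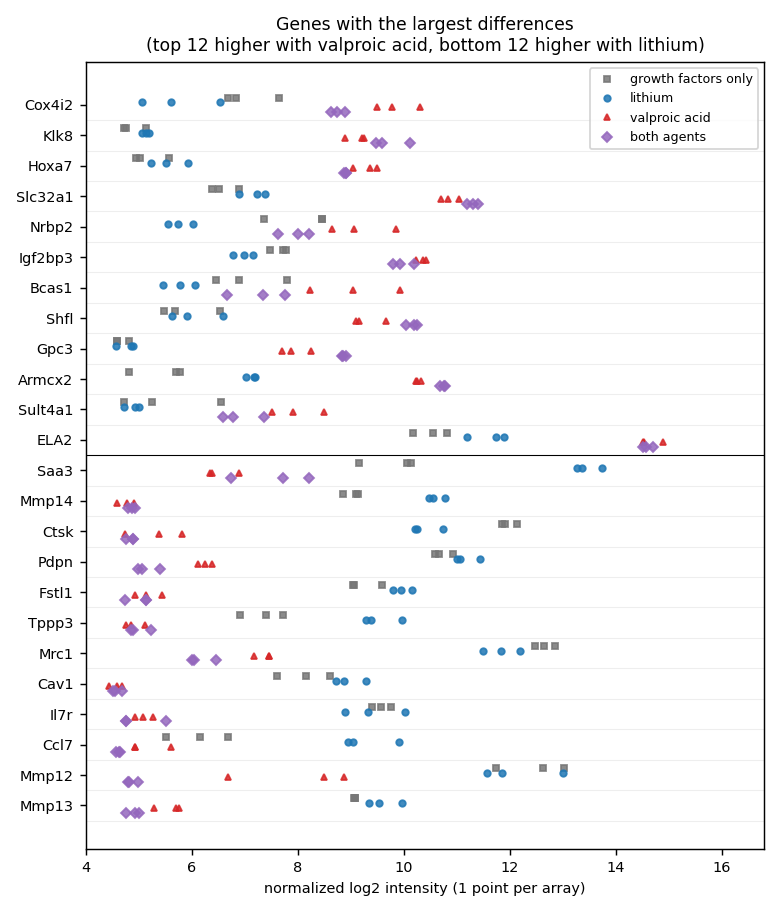
Normalized log2 intensity (horizontal axis) of the 12 genes with the largest differences in each direction, 1 point per array and 4 colours for the 4 groups. Valproic acid and lithium points do not overlap in any row, and below the dividing line the points of cultures with both agents lie below all lithium points of the same row.

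Macrophage genes separated the agents in 1 direction. Of 17 tested macrophage identity genes, 14 were higher with lithium, 0 were higher with valproic acid and 3 did not pass, with a median difference of -1.72 against 0.0336 over all genes. The number higher with lithium was 12 to 15 when 1 array was left out, and 14 with the array set as a block. Against growth factors only, 13 of the 17 were lower with valproic acid and 6 were lower with lithium (12.5% and 5.59% of all genes). The latter number was 3 without lithium replicate 3 and 4 with median scaling. Mrc1, the mannose receptor of tissue macrophages, read 12.18, 11.50 and 11.84 with lithium and 7.46, 7.45 and 7.16 with valproic acid (22.3-fold, adjusted p = 2.04e-07). Chil3, the secreted lectin Ym1, read 14.16, 13.95 and 14.11 against 10.01, 11.40 and 10.87 (9.95-fold, adjusted p = 4.08e-05), and 2 more of its probes differed by -4.09 and -3.39.

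Csf1r, the receptor of the macrophage growth factor M-CSF, read 11.32, 10.37 and 10.29 with lithium and 7.96, 8.16 and 8.35 with valproic acid (-2.50 ± 0.34, adjusted p = 0.000313). Cd14, the lipopolysaccharide co-receptor, differed by -2.62 ± 0.19 (adjusted p = 2.51e-06), and Gpnmb and Cd68, glycoproteins of macrophage lysosomes, by -2.84 and -1.72 (adjusted p = 9.41e-06 and 0.000149). Not every macrophage marker took part. Adgre1, the F4/80 antigen, read 10.53, 12.25 and 11.78 with valproic acid and 12.25, 12.07 and 12.08 with lithium, with overlapping arrays (-0.61 ± 0.46, adjusted p = 0.424), and Fcgr1 differed by -0.03 ± 0.28 (adjusted p = 0.95).

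Antigen presentation followed the same direction. Of 11 tested genes of MHC class II presentation, 8 were higher with lithium and 0 with valproic acid, with a median of -1.69. H2-Eb1, a class II beta chain, read 11.37, 10.96 and 10.96 with lithium and 8.71, 7.87 and 8.39 with valproic acid (-2.77 ± 0.24, adjusted p = 9.95e-06), and H2-Aa, an alpha chain, read 12.35, 11.83 and 11.87 and 8.18, 9.06 and 9.68 (adjusted p = 0.00406). Cd74, the invariant chain that guides class II molecules, read 13.69, 13.17 and 13.03 and 11.01, 10.83 and 11.03 (-2.33 ± 0.19, adjusted p = 8.52e-06). Ciita, the transactivator of the class II genes, differed by -1.69 ± 0.31 (adjusted p = 0.00284). H2-DMa, a peptide exchange chaperone, differed by -0.10 ± 0.23 (adjusted p = 0.822). With respect to growth factors only, class II genes were lower with both agents: 10 of the 11 with valproic acid (median -3.05) and 9 of the 11 with lithium (median -1.29). Over all genes, 12.5% and 5.59% were lower. The number lower with lithium was 7 with median scaling and 7 to 9 when 1 array was left out.

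Of 15 tested dendritic cell genes, 9 were higher with lithium and 0 with valproic acid, with a median of -1.16. That number fell to 6 without lithium replicate 1, without lithium replicate 3 or without valproic acid replicate 3. Ccl17, a T cell chemoattractant of dendritic cells, read 11.20, 10.46 and 10.26 with lithium and 7.16, 8.13 and 7.79 with valproic acid (adjusted p = 0.000426). The costimulatory molecule Cd40 was not detected on any valproic acid array (mean 4.78 ± 0.08 against 6.74 ± 0.06 with lithium, at least 2.71-fold, adjusted p = 0.00143), and a second Cd40 probe differed by -0.69 without passing. Cd80, another costimulatory molecule, and Cd83, a maturation marker, differed by -1.94 and -1.92 (adjusted p = 0.00233 and 0.00029).

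Secreted and surface molecules of inflammation were also on the lithium side. Of 13 tested myeloid chemokines, 10 were higher with lithium and 0 with valproic acid (median -1.61). Ccl7, a monocyte chemoattractant, read 9.90, 9.04 and 8.95 with lithium, 5.60, 4.93 and 4.92 with valproic acid and 6.15, 6.68 and 5.50 with growth factors only. Ccl2, its close relative, read 9.72, 9.02 and 8.67, 5.85, 6.13 and 5.82 and 6.64, 7.93 and 7.01 in the same order (-3.20 ± 0.35 between agents, adjusted p = 7.34e-05), and Cxcl2, a neutrophil chemoattractant, differed by -3.43 ± 0.29 (adjusted p = 8.67e-06). With lithium these 3 chemokines were higher than with growth factors only, by 3.19, 1.94 and 1.07 (adjusted p = 0.000134, 0.00569 and 0.0371). With valproic acid the same 3 were lower, with differences of -0.96, -1.26 and -2.36 (adjusted p = 0.0485, 0.0209 and 8.06e-05). Of these calls, that of Cxcl2 with lithium was lost without any 1 of the growth-factor arrays, without lithium replicate 1 or 2 and without replicate 3 of both agents. That of Ccl2 with valproic acid was lost without growth factors only replicate 2 or valproic acid replicate 3, and that of Ccl7 with valproic acid was lost for most arrays left out. Ccl9 and Ccl3 did not separate the agents (0.06 ± 0.22 and -0.62 ± 0.25, adjusted p = 0.881 and 0.123).

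C-type lectin receptors, which bind microbial sugars, had the lowest median of the 38 gene lists, -2.13, with 9 of 11 tested members higher with lithium. Clec4n (Dectin-2) read 12.54, 12.41 and 12.29 with lithium and 8.69, 9.37 and 9.20 with valproic acid (-3.33 ± 0.23, adjusted p = 2.16e-06), and Clec4e (Mincle) differed by -2.80 ± 0.17 (adjusted p = 6.64e-07). Fpr2, a formyl peptide receptor, read 11.27, 11.32 and 11.30 with lithium against 7.63, 7.43 and 7.49 (adjusted p = 1.34e-07). Among Toll-like receptors and their adaptors, 7 of 16 were higher with lithium (11 with the array set as a block) and 1 with valproic acid. Tlr2, a sensor of bacterial lipoproteins, differed by -1.61 ± 0.22 (adjusted p = 0.000418). The exception was Ly86, the MD-1 partner of the RP105 receptor, which read 6.92, 7.18 and 7.70 with valproic acid and 5.0, 4.94 and 5.39 with lithium (adjusted p = 0.000887).

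Lysosomal genes gave 9 of 24 higher with lithium and 0 with valproic acid (median -0.528), but this number depended on single arrays: it was 3 without lithium replicate 1 and 6 without valproic acid replicate 1, and 14 with the array set as a block. Laptm5, a lysosomal membrane protein of leukocytes, did not differ beyond its spread (-0.15 ± 0.18, adjusted p = 0.625). Of 23 cytokine receptors, 9 were higher with lithium and 1 with valproic acid. The former number was 5 without lithium replicate 1 and 14 with the block, and the latter was 0 without lithium replicate 1 or 2 or valproic acid replicate 1 and 2 without valproic acid replicate 3. Csf2ra, the alpha chain of the receptor for the GM-CSF in the medium, read 11.13, 10.96 and 10.99 with lithium, 8.89, 9.06 and 9.08 with valproic acid and 10.98, 11.11 and 11.09 with growth factors only (-2.02 ± 0.17 between agents, adjusted p = 9.4e-06).

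**Figure D3:**
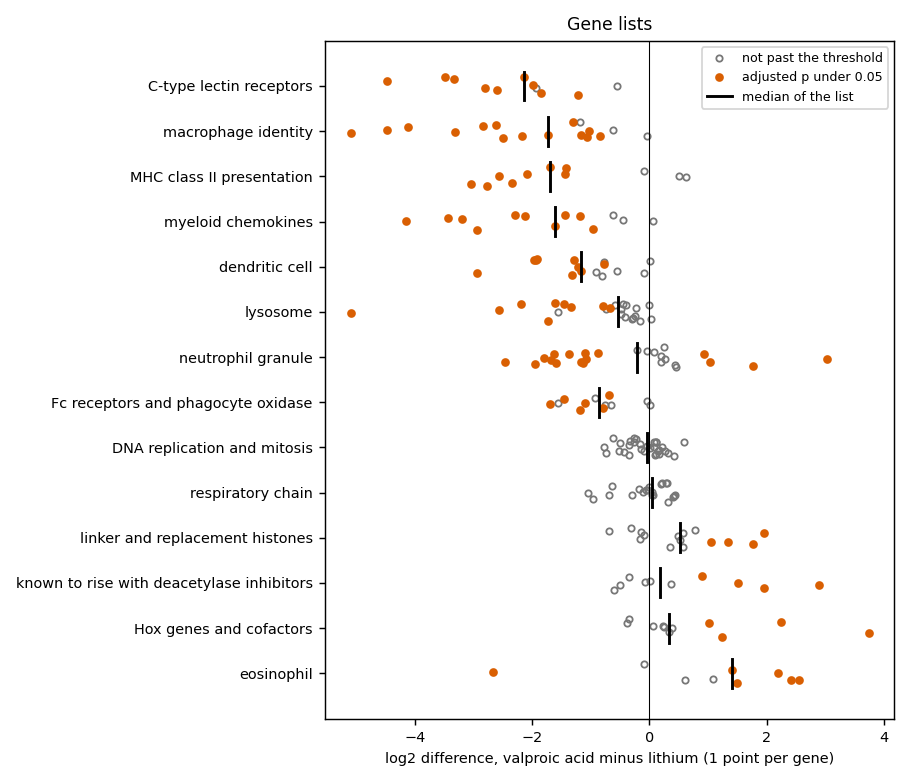
Log2 difference between valproic acid and lithium (horizontal axis) for each tested gene of 14 gene lists, filled where the adjusted p was under 0.05, with the median of each list as a bar. Lectin, macrophage, class II and chemokine genes lie to the left (higher with lithium), eosinophil genes mostly to the right, and replication and respiratory chain genes around 0.

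Granulocyte genes split. Of 25 tested neutrophil granule genes, 12 were higher with lithium, 4 with valproic acid (2 without lithium replicate 1 or valproic acid replicate 1) and 9 did not pass (median -0.207). ELA2 is the name given in the deposited probe profile, and it is a synonym of both the neutrophil elastase Elane and the pancreatic elastase Cela2a. It read 14.54, 14.51 and 14.88 with valproic acid, 11.19, 11.74 and 11.89 with lithium and 10.81, 10.18 and 10.55 with growth factors only. Valproic acid was 8.2-fold above lithium (adjusted p = 4.14e-06). Proteins of the primary (azurophil) granule, the first to form in promyelocytes, did not all follow. Prtn3, proteinase 3, was higher with valproic acid by 1.04 ± 0.25 (adjusted p = 0.0146), a call lost without lithium replicate 1 and without valproic acid replicate 1. Ctsg, cathepsin G, and Mpo, myeloperoxidase, differed by 0.43 ± 0.19 and 0.20 ± 0.22 and did not pass (adjusted p = 0.169 and 0.595).

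For these 4 genes, both agents were above growth factors only, as were 14.2% of all genes with valproic acid and 3.7% with lithium. The differences with valproic acid were 4.13 for ELA2, 2.85 for Prtn3, 3.23 for Ctsg and 3.58 for Mpo (adjusted p = 1.8e-07, 6.17e-06, 3.07e-07 and 4.53e-07). Those with lithium were 1.09, 1.81, 2.80 and 3.38 (adjusted p = 0.0125, 0.000981, 6.8e-06 and 4.99e-06), and the ELA2 call was lost without growth factors only replicate 2 or lithium replicate 2 or 3.

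Among the 12 neutrophil genes higher with lithium were Ltf, Lcn2, Camp and Chil1. Ltf, lactoferrin, read 14.28, 14.50 and 14.73 with lithium and 13.40, 12.88 and 12.35 with valproic acid (adjusted p = 0.00131). Lcn2, the iron-scavenging lipocalin, read 14.97, 14.92 and 14.74 and 13.26, 13.21 and 12.74 (adjusted p = 0.000135), and Camp, the cathelicidin precursor, differed by -1.59 ± 0.29 (adjusted p = 0.00259). Chil1, a chitinase-like protein, read 12.32, 12.27 and 12.34 and 10.11, 9.84 and 9.59 (-2.47 ± 0.22, adjusted p = 1.55e-05). With lithium these 4 genes did not pass the test against growth factors only (-0.09, 0.43, 0.63 and 0.45), while with valproic acid all 4 were lower (-1.72, -1.37, -0.96 and -2.01), with the Camp call lost under median scaling and without growth factors only replicate 2 or 3 or valproic acid replicate 1 or 3. S100a8 and S100a9, the abundant cytosolic calcium-binding pair of neutrophils, did not separate the agents (0.20 ± 0.29 and 0.08 ± 0.22, adjusted p = 0.692 and 0.834).

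The other 2 neutrophil genes higher with valproic acid, Retnlg, a resistin-like secreted protein, and Cxcr2, the receptor of neutrophil chemokines, were lower with both agents than with growth factors only. Retnlg read 7.46, 7.09 and 6.12 with valproic acid and 5.40, 4.90 and 5.05 with lithium, against 10.59, 10.48 and 10.81 with growth factors only, and no lithium array detected it, so the difference between agents is at least 2.8-fold (adjusted p = 0.00145). Cxcr2 differed between agents by 0.93 ± 0.24 (adjusted p = 0.0219), a call lost when any of lithium replicates 1 and 2 and valproic acid replicates 1 and 2 was left out.

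Of 9 tested eosinophil genes, 5 were higher with valproic acid, 1 was higher with lithium and 3 did not pass (median 1.42). Prg2, the major basic protein of the eosinophil granule, read 12.07, 11.39 and 11.47 with valproic acid, 8.82, 9.34 and 9.13 with lithium and 10.94, 9.84 and 9.99 with growth factors only (adjusted p = 0.00113 between agents). Epx, eosinophil peroxidase, read 7.17, 7.53 and 7.90, 5.12, 5.12 and 5.09 and 6.02, 6.25 and 6.46 in the same order, and no lithium array detected it (at least 4.37-fold, adjusted p = 0.000191). Prg3, a homolog of Prg2, was likewise undetected with lithium (means 7.02 ± 0.52 and 4.83 ± 0.20, at least 3.05-fold, adjusted p = 0.00195). The eosinophil-associated ribonucleases are near-identical copies, and a probe may read more than 1 of them. Within this family the directions opposed: Ear2 and EAR4 were higher with valproic acid by 1.42 and 1.50 (adjusted p = 0.00141 and 0.000742), and Ear6 was higher with lithium (-2.67 ± 0.33, adjusted p = 0.000162). For Ear2 and EAR4 the growth-factor level was the highest of the 3, and lithium was below it (-2.09 and -2.15, adjusted p = 0.000246 and 0.000152).

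**Figure D4:**
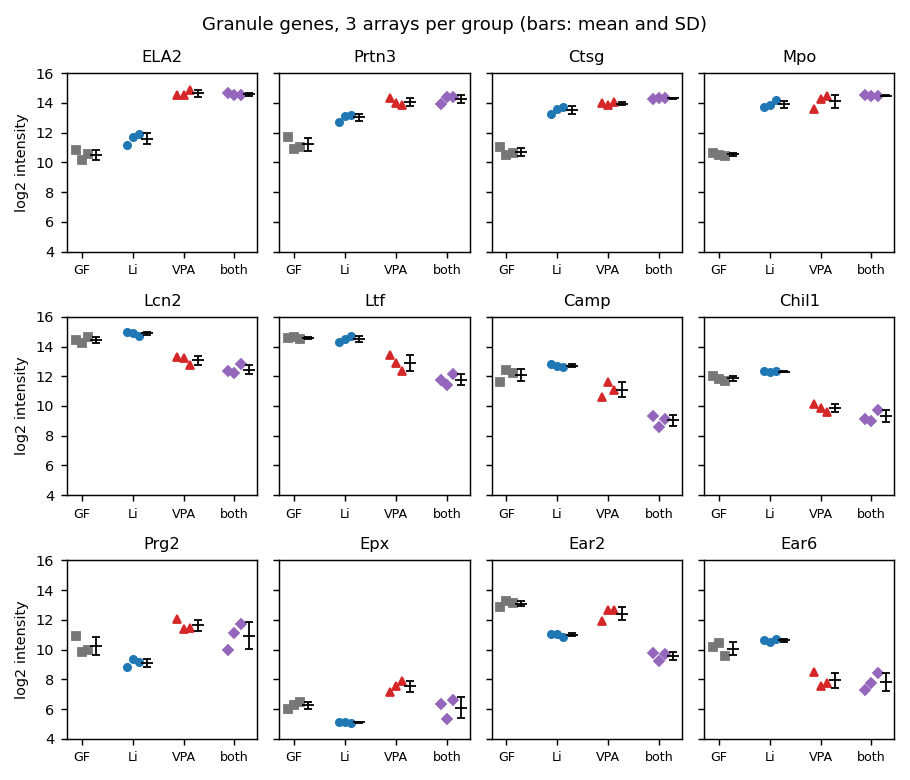
Log2 intensity (vertical axis) of 12 granule genes in the 3 arrays of each group (GF, growth factors only; Li, lithium; VPA, valproic acid; both, both agents), with mean and SD as bars. ELA2 and Prtn3 are highest in VPA and both, Mpo and Ctsg are raised alike in Li and VPA, and Lcn2, Ltf, Camp and Chil1 are lower in VPA than in Li.

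Mast cell and basophil genes were divided, with 3 of 14 higher with valproic acid (1 without lithium replicate 1 or 2, and 5 with the block) and 4 higher with lithium. The shares of all genes were 8.7% with valproic acid (15.5% with the block) and 7.07% with lithium. Gata2, a transcription factor of stem cells and mast cells, read 10.48, 10.01 and 9.94 with valproic acid and 8.51, 8.09 and 8.39 with lithium (1.82 ± 0.21, adjusted p = 9.67e-05). Cpa3, the mast cell carboxypeptidase, differed in the other direction by -1.15 ± 0.22 (adjusted p = 0.0041), as did Fcer1a, the alpha chain of the IgE receptor (-1.46 ± 0.27, adjusted p = 0.00324). The other genes higher with valproic acid were Hdc, histidine decarboxylase, and Prss34, a basophil protease (0.91 and 1.03, adjusted p = 0.0331 and 0.0256). Both calls were lost without lithium replicate 1, without lithium replicate 2 and without valproic acid replicate 1, and the Hdc call also without lithium replicate 3 and the Prss34 call without valproic acid replicate 3.

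Among 9 tested stem and progenitor surface genes, 2 were higher with valproic acid and 0 with lithium (4 and 0 with the block). The shares of all genes were 8.7% and 7.07% (15.5% and 12.7% with the block). Thy1, a glycoprotein of early progenitors and T cells, read 12.52, 12.32 and 11.99 with valproic acid, 9.67, 9.96 and 10.06 with lithium and 8.55, 7.98 and 8.05 with growth factors only (2.38 ± 0.22 between agents, adjusted p = 2.05e-05). Ly6a, the Sca-1 antigen, read 10.41, 10.35 and 10.30, 9.18, 8.84 and 8.82 and 10.49, 10.68 and 10.39 in the same order (1.40 ± 0.17, adjusted p = 0.000157). Thy1 was above growth factors only with both agents, by 4.09 with valproic acid and 1.71 with lithium, whereas for Ly6a lithium was lower (-1.57, adjusted p = 0.0002) and valproic acid was within the spread (-0.17, adjusted p = 0.547). Cd34 did not pass (0.80 ± 0.46, adjusted p = 0.296) but did with the array set as a block (1.20, adjusted p = 0.00155).

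Of 14 tested transcription factors of stem cells and the erythroid and megakaryocytic lineages, 3 were higher with valproic acid and 1 with lithium (4 and 2 with the block). Those higher with valproic acid were Gata2, given above, Meis1, given below, and Nfe2, a factor of platelet formation (0.97 ± 0.17, adjusted p = 0.00191). Bmi1, a Polycomb subunit needed for stem cell self-renewal, was higher with lithium: it read 5.53, 6.15 and 5.87 with lithium and 4.75, 5.04 and 5.38 with valproic acid (-0.79 ± 0.22, adjusted p = 0.0303), a call lost without lithium replicate 2 or 3 or valproic acid replicate 1 or 2.

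Of 11 tested Hox genes and cofactors, 4 were higher with valproic acid and 0 with lithium. Hoxa7, a homeobox gene of the HoxA cluster used by immature myeloid cells, whose promoter is shown above, read 9.49, 9.35 and 9.03 with valproic acid, 5.50, 5.23 and 5.92 with lithium and 5.56, 5.01 and 4.95 with growth factors only. The agents differed 13.4-fold (3.74 ± 0.23, adjusted p = 6.93e-07). Hoxa5 was undetected on the lithium arrays (means 6.96 ± 0.45 with valproic acid and 4.72 ± 0.12, at least 2.94-fold, adjusted p = 0.000514). Hoxa9 and its cofactor Meis1 differed by 1.24 and 1.02 (adjusted p = 0.0141 and 0.0167). The Hoxa9 call was lost without lithium replicate 2, without lithium replicate 3 and without valproic acid replicate 3, and the Meis1 call without lithium replicate 2 and without valproic acid replicate 1. Without lithium replicate 2 the number of Hox genes and cofactors was 2.

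Transcription factors of the myeloid program were higher with lithium at 8 of 22 tested genes and higher with valproic acid at 4. Egr2, an early growth response factor of macrophages, read 9.09, 8.58 and 8.81 with lithium and 6.13, 6.97 and 6.81 with valproic acid (adjusted p = 7.07e-05). Klf4, a factor of monocytes, differed by -2.13 ± 0.46 and Fos, an AP-1 subunit, by -1.82 ± 0.29 (adjusted p = 0.0079 and 0.00122). Myb and Myc, factors of dividing progenitors, were higher with valproic acid. Myb was detected on the 3 valproic acid arrays and no lithium array (means 6.51 ± 0.60 and 5.11 ± 0.14, at least 2.15-fold, adjusted p = 0.0098), but a second Myb probe differed by 0.40 and did not pass. Myc read 7.52, 7.05 and 7.46 with valproic acid and 5.76, 6.20 and 5.96 with lithium (adjusted p = 0.00278).

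Polycomb genes, which keep developmental genes silent, were higher with valproic acid at 3 of 17 and with lithium at 1. The latter number was 0 without lithium replicate 2 or 3 or valproic acid replicate 1 or 2. Over all genes, the shares were 8.7% and 7.07%. Phc1 read 8.79, 8.49 and 8.67 with valproic acid and 6.99, 7.01 and 6.63 with lithium (1.78 ± 0.18, adjusted p = 3.86e-05), and Cbx7 was undetected with lithium (means 6.57 ± 0.27 and 4.91 ± 0.19, at least 2.24-fold, adjusted p = 0.00248). In adhesion, 8 of 18 tested genes were higher with lithium (5 without valproic acid replicate 3) and 2 with valproic acid. Itgb2, the common beta chain of leukocyte integrins, read 10.41, 10.09 and 10.01 with lithium and 6.78, 8.13 and 8.13 with valproic acid (adjusted p = 0.00564).

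Markers of other lineages were checked beside these results, and their part in them was not tested. Of 25 T, NK and B lymphocyte genes on the array, 8 were tested, and 3 were higher with each agent. Between 6 and 8 of the 25 were detected on the lithium arrays and between 4 and 6 on the valproic acid arrays. Nkg7, a cytotoxic granule protein, read 11.57, 11.06 and 10.89 with valproic acid, 8.02, 9.12 and 9.18 with lithium and 6.69, 6.12 and 6.14 with growth factors only (adjusted p = 0.00035 between agents), and Cd2, an adhesion receptor of lymphocytes, was undetected with valproic acid (means 7.06 ± 0.30 with lithium and 4.77 ± 0.14, at least 3.36-fold, adjusted p = 1.39e-05). Of 12 tested erythroid genes, 2 were higher with valproic acid and 0 with lithium, against 8.7% and 7.07% of all genes. Hba-a1, an alpha globin, read 10.28, 9.56 and 8.27 and 6.90, 7.36 and 7.45 (adjusted p = 0.00321), and Tfrc, the transferrin receptor, differed by 1.31 ± 0.20 (adjusted p = 0.000719). Hbb-b1, a beta globin, was low on the first valproic acid array (6.62, 9.85 and 9.76) and did not pass (adjusted p = 0.158), but did with the block (2.97, adjusted p = 8.43e-06). Of 19 fibroblast and endothelial genes, 3 or 4 were detected on each array of either agent. Of the 6 tested, 1 was higher with lithium and 0 with valproic acid, against 7.07% and 8.7% of all genes.

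Genes tied to the known action of valproic acid were examined next. Of 15 tested linker and replacement histone genes, 4 were higher with valproic acid, 0 with lithium (median 0.521), and 7 were higher with the block. H1f0, the linker histone of differentiated cells and a classical responder to deacetylase inhibitors, read 9.38, 10.37 and 10.44 with valproic acid, 8.26, 8.03 and 8.0 with lithium and 8.50, 9.31 and 9.74 with growth factors only (1.96 ± 0.39 between agents, adjusted p = 0.00432). Neither agent alone passed against growth factors only for H1f0 (0.88 with valproic acid, adjusted p = 0.123, and -1.08 with lithium, adjusted p = 0.11). These contrasts mix array sets. On the chip of valproic acid replicate 1, H1f0 read 9.38 with valproic acid and 8.50 with growth factors only. On the other chips it read 10.37 and 10.44 with valproic acid, 9.31 and 9.74 with growth factors only and 8.0 to 8.26 with lithium. This split by chip leaves 1 or 2 arrays of valproic acid and of growth factors only. That is too few to draw a conclusion from. H1f2, another linker histone, differed by 1.76 ± 0.26 (adjusted p = 0.000633), and there the gap lay on the lithium side: lithium was below growth factors (-2.23, adjusted p = 0.000324) and valproic acid was within the spread (-0.46, adjusted p = 0.234). H2ax and H2bc21, core histone genes, differed by 1.34 and 1.05 (adjusted p = 0.0018 and 0.00905).

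Of 10 tested genes known to rise with deacetylase inhibitors, 4 were higher with valproic acid and 0 with lithium, and 6 did not pass. Over all genes, 8.7% and 7.07% were higher. Against growth factors only, 3 of the 10 were higher with valproic acid and 0 lower (median -0.0205, and 14.2% and 12.5% of all genes). With lithium 1 was higher and 2 were lower (median -0.127, and 3.7% and 5.59% of all genes). The number lower with lithium was 0 with median scaling. Cdkn1c, the cyclin-dependent kinase inhibitor p57, was detected with valproic acid (8.33, 7.56 and 7.20) and not with lithium (4.79, 4.75 and 4.85, at least 4.89-fold, adjusted p = 9.67e-05). Ckb, brain creatine kinase, differed by 1.52 ± 0.24 (adjusted p = 0.000899). Txnip, an inhibitor of thioredoxin, differed by 0.90 ± 0.23 (adjusted p = 0.0216), a call lost without lithium replicate 1, lithium replicate 2 or valproic acid replicate 2. Cdkn1a, the inhibitor p21, read 11.82, 11.79 and 11.38 with valproic acid and 11.47, 11.26 and 11.16 with lithium and did not pass (0.36 ± 0.18, adjusted p = 0.228). Of 14 tested deacetylases and sirtuins, 2 were higher with valproic acid and 1 with lithium, against 8.7% and 7.07% of all genes. With the block these numbers were 4 and 1, against 15.5% and 12.7%. The calls without the block depended on single arrays. Hdac6 and Sirt5 were higher with valproic acid by 1.03 ± 0.31 and 0.79 ± 0.21 (adjusted p = 0.0472 and 0.0273), and without lithium replicate 2 or any 1 of the valproic acid arrays neither passed. Sirt2 was higher with lithium (-0.88 ± 0.23, adjusted p = 0.0206), a call lost without any 1 lithium array and without valproic acid replicate 1 or 3. Hdac2 and Hdac3 were 0.54 ± 0.19 and 0.50 ± 0.16 apart (adjusted p = 0.0836 and 0.0503), and with the block these differences passed (0.63 and 0.52, adjusted p = 0.00746 and 0.00918). Hdac1 was not analysed here.

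For the known targets of lithium, the transcripts of the kinases showed no difference beyond the spread. Gsk3b read 7.23, 7.29 and 7.71 with lithium and 7.83, 7.24 and 6.56 with valproic acid (-0.20 ± 0.32, adjusted p = 0.719). Gsk3a, detected on 1 lithium and 2 valproic acid arrays, differed by 0.07 ± 0.21 (adjusted p = 0.854). Among 17 tested genes of lithium targets and inositol metabolism, 2 were higher with each agent (0 with lithium without lithium replicate 1 or valproic acid replicate 3). Over all genes, 8.7% were higher with valproic acid and 7.07% with lithium. Itpr1, a calcium channel gated by inositol trisphosphate, was 1.19 ± 0.26 higher with valproic acid (adjusted p = 0.00909). Of 14 tested genes of the beta-catenin pathway and its targets, 3 were higher with valproic acid and 1 with lithium (median 0.0421). The latter number was 0 without lithium replicate 1 or valproic acid replicate 3. The shares of all genes were the same 8.7% and 7.07%. Ccnd1, cyclin D1, a classical target, read 10.59, 10.03 and 10.24 with valproic acid, 9.23, 9.23 and 9.17 with lithium and 10.83, 11.11 and 10.61 with growth factors only. Lithium was thus the lowest of the 3 groups, -1.64 against growth factors (adjusted p = 0.000826) and 1.08 below valproic acid (adjusted p = 0.0055). Ctnnb1, beta-catenin itself, differed by -0.12 ± 0.29 (adjusted p = 0.817). Axin2, the pathway's feedback inhibitor, was detected on 0 of the 12 arrays and was not tested.

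**Figure D5:**
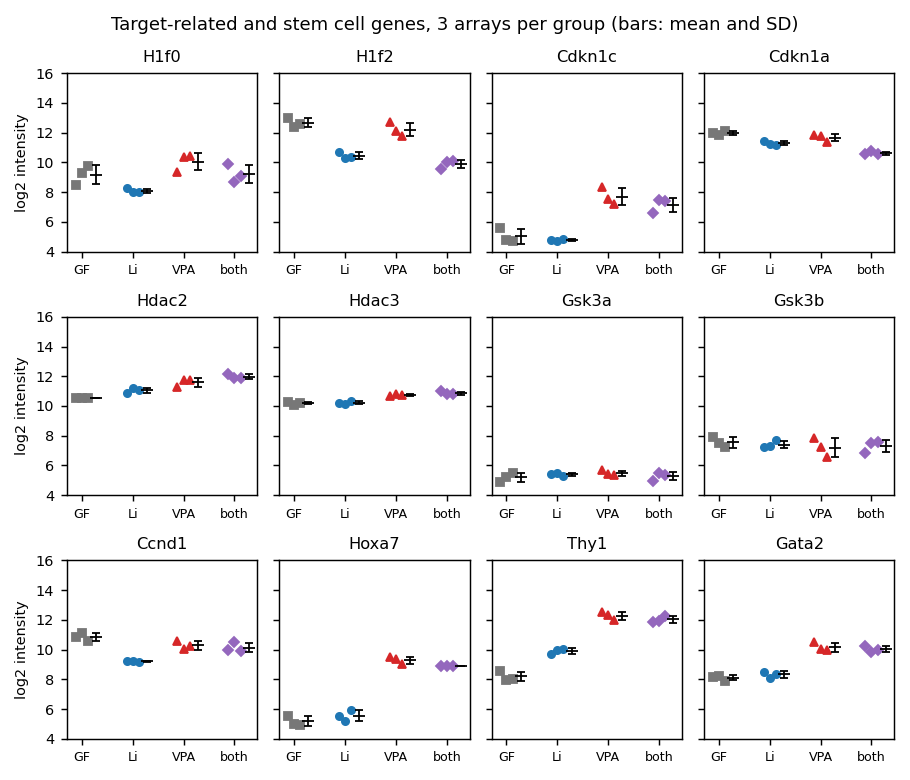
Log2 intensity (vertical axis) of 12 genes in the 3 arrays of each group (GF, growth factors only; Li, lithium; VPA, valproic acid; both, both agents), with mean and SD as bars. H1f0, H1f2, Cdkn1c, Hoxa7, Thy1 and Gata2 are higher in VPA than in Li, while Cdkn1a, Gsk3a and Gsk3b overlap between these groups.

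None of 31 tested genes of DNA replication and mitosis passed in either direction (limma, median -0.0358), and with the block 2 were higher with lithium. Cenpa, a centromeric histone, and Mcm4, a subunit of the replicative helicase, differed by 0.07 ± 0.20 and 0.22 ± 0.25 (adjusted p = 0.843 and 0.606). None of the 21 tested genes of the respiratory chain list, which does not hold Cox4i2, passed (median 0.045), with 3 higher with valproic acid with the block, and Atp5b, a subunit of ATP synthase, differed by 0.05 ± 0.21 (adjusted p = 0.908). At an unadjusted p under 0.05 the counts were 1 of 31 and 1 of 21, against 28.4% of all genes. Glycolysis had 3 of 19 genes higher with valproic acid and cholesterol synthesis 2 of 20, with 0 higher with lithium in either. Over all genes, 8.7% were higher with valproic acid and 7.07% with lithium. The glycolysis number was 1 without lithium replicate 2 or 3 or valproic acid replicate 1 or 2. With the block 5 glycolysis and 7 cholesterol synthesis genes were higher with valproic acid, against 15.5% of all genes. Without lithium replicate 2 or 3 or valproic acid replicate 1 or 3 the number for cholesterol synthesis was 1.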

How the data were processed

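Gene expression was measured on Illumina mouse bead arrays, 1 per culture, in 12 cultures of 4 groups of 3. Per the labels, 100 ng of total RNA was amplified and labelled with biotin, and GenomeStudio (version 1.1.1 per the file headers) summarized the scans. The deposited table of intensity per probe, with detection p-values for each array, carried the analysis. Its intensities showed no sign of normalization between arrays. A second table deposited by the authors held log2 values, made by steps the labels do not describe, and served as an alternative. For 5 of the 12 arrays the values of the tables matched those of another replicate of the same group, so replicate numbers follow the intensity table.

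Probes carry no gene names in the intensity table. They were linked to the names in the deposited probe profile by identical intensities on the 12 shared arrays (all 25697 probes linked, tolerance 0.06, next best match at least 2.82 away). The profile's 24 arrays have names that match no label, so its columns served only as this key and to read which arrays shared a chip, and 12 of its arrays were not used. Of 18097 names, 14096 matched a RefSeq symbol, 3046 a synonym and 955 neither.

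Intensities were normalized with neqc of limma 3.58.1 in R 4.3.3 (background from the detection p-values, offset 16, quantile). Probes that 3 or more arrays detected (p under 0.05) were fitted with 1 mean per group over all 12 arrays (8 residual degrees of freedom), lmFit and eBayes, with Benjamini-Hochberg adjustment over all tested probes and a threshold of 0.05. The fit was tested on simulated data. A gene stands for its tested probe with the highest mean. Where no array of a group detected a probe, the fold is a lower bound, computed against the lowest detected signal of each array. Precision is limited by 3 arrays per group.

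The comparison, its members and the gene lists were chosen with earlier results of these data known. Genes were named by rule: the 12 with the largest differences in each direction with non-overlapping arrays, up to 4 passing and 2 not passing members of each list, and 8 fixed genes. A few genes that the rule names are not reported here. Cd68, Gpnmb, Ciita, Ltf, Camp, Prtn3, Mpo, Ctsg, Cxcr2, Retnlg, Ear2, EAR4, Hdc and Prss34 were named after their values were seen. Alternatives covered background correction, scaling, filters, eBayes settings, blocks and left-out arrays. The chip as a block, 1 chip alone, and the alternatives for gene lists and for counts against growth factors only were added after seeing the data. Same-numbered valproic acid and lithium arrays did not deviate together (r from -0.141 to -0.107), so replicate numbers were not taken as pairs.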

Additional observations from a re-analysis of the deposited data

How the results depend on the processing

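The number of probes that separated the agents (1869, with 993 higher with valproic acid and 876 higher with lithium) stayed within 1.5 times of these values without background correction (1930), with median scaling (1712), without the filter (1806), with probes detected on all 6 arrays (1483), with the deposited log2 values (1924), with trend and robust eBayes (1902), with only the 6 arrays (1915), with 1 probe per gene (1576) and with the replicate number as a block (replicate block, 1401, of which 708 and 693). It moved with the array set as a block (3459, of which 1843 and 1616), with only the larger array set (3175, of which 1654 and 1521) and with the chip as a block (3303, of which 1740 and 1563). With only the arrays of 1 chip it was 1374, of which 601 were higher with valproic acid and 773 with lithium. Leaving out 1 array gave 1143 to 2178 in all, 569 to 1167 higher with valproic acid and 574 to 1011 higher with lithium. Against growth factors only, the number of probes moved for valproic acid (3248) with the array set as a block (5939), with the larger set (5051) and with the chip as a block (5384), and was 2360 to 3488 when 1 array was left out. For lithium (1108) it moved with the replicate block (669), the array set as a block (3164), the larger set (3069) and the chip as a block (2750), and was 448 to 1379 when 1 array was left out. The cause of these movements was not tested. Of 113 named genes that passed, none reversed in the settings that gave a value, which were all of the above except that probes detected on all 6 arrays held 75 of the 113. Where the arrays of the agents do not overlap, as at 1868 of the 1869 probes, leaving out arrays cannot reverse a difference. Those settings therefore could not show a reversal at such probes. All 113 passed with the array set and the chip as blocks, but so did all 1869 probes. When 1 array was left out, 99 to 113 passed. Under the replicate block 105 passed, and Arg1, Cxcr2, Ctss, Ctsz, Hdc, Hdac6, Fzd7 and Sirt2 did not. With median scaling 107 passed and Prtn3, H2bc21, Txnip and Sirt2 were among those that did not. Without background correction 108 passed and Cxcr2 and Bmi1 were among those that did not, and with the deposited log2 values 107 passed and Cxcr2, Myb and Bmi1 were among those that did not. With 1 chip alone 102 passed. Same-numbered arrays of the agents correlated at r from -0.141 to -0.107, so the numbers were not taken as pairs. This check cannot exclude pairing, because lithium replicates 1 and 3 are swapped between the deposited tables. Having 3 arrays per group and a signal floor at the background limit differences of dim probes, for which folds are lower bounds.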

Other observations

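Further gene groups were compared between the agents. Platelet genes were divided, with 4 of 15 tested members higher with lithium and 2 higher with valproic acid (6 and 4 with the array set as a block, and 4 higher with valproic acid without valproic acid replicate 3). The shares of all genes were 7.07% with lithium and 8.7% with valproic acid (12.7% and 15.5% with the block). Pf4, platelet factor 4, a chemokine of platelets and macrophages, read 10.90, 10.05 and 10.21 with lithium, 7.75, 8.65 and 8.38 with valproic acid and 7.40, 8.43 and 8.41 with growth factors only (adjusted p = 0.00956 between agents, limma), so lithium stood above both other groups. The Pf4 call was lost without lithium replicate 1 (-1.87). Vwf, von Willebrand factor, read 10.55, 10.37 and 9.89 with growth factors only, 8.56, 8.25 and 8.41 with lithium and 6.75, 6.19 and 5.65 with valproic acid (adjusted p = 0.00025), a graded order without overlap. F2r, the thrombin receptor, was higher with valproic acid (1.94 ± 0.36, adjusted p = 0.00306). Thbs1, thrombospondin 1, was undetected with lithium and at least 3.29-fold higher with valproic acid (adjusted p = 0.000818), although its level was highest with growth factors only (8.93, 8.27 and 8.88).

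Of 13 tested genes of macrophage lipid uptake and efflux, 3 were higher with lithium (1 without lithium replicate 1 or valproic acid replicate 3, and 7 with the block). Ch25h, which makes 25-hydroxycholesterol, read 7.81, 7.27 and 7.49 with lithium and was not detected on any valproic acid array (at least 4.64-fold, adjusted p = 1.42e-05), against 10.25, 10.36 and 9.70 with growth factors only. Bcl2a1d, a survival gene of the Bcl2 family with near-identical copies that 1 probe may read together, differed by -1.98 ± 0.23 (adjusted p = 0.00011), and Pfkm, the muscle isoform of phosphofructokinase, was higher with valproic acid by 1.46 ± 0.20 (adjusted p = 0.000367). Of 14 tested type I interferon response genes, 1 was higher with valproic acid (0 without lithium replicate 1) and 2 with lithium (0 without lithium replicate 2 or 3 or valproic acid replicate 3), against 8.7% and 7.07% of all genes, with a median of -0.0366.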
